A study of Mus musculus with 40 samples.

Results

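Dense PU.1 peak clusters are stretches of the macrophage genome in which 5 or more PU.1 peaks follow one another closely. They were chosen by the measured positions of the peaks in the deposited PU.1 peak list. On the 19 autosomes and chromosome X, each PU.1 summit, the base of highest signal in a peak, was chained to the next when the pair lay at most 5000 bp apart, and chains of at least 5 summits were kept. The rule gave 180 clusters with 995 PU.1 peaks, which is 1.47% of the 67674 PU.1 peaks on these 20 chromosomes. The comparison set was the 41108 isolated PU.1 peaks, 60.7% of the list, with no other PU.1 summit within 5000 bp on either side. The density of PU.1 peaks is therefore set by the rule, and the spacing and strength of the PU.1 peaks are given as a description of what was chosen.

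The study compared bone marrow-derived macrophages of Csf1r-Cre wild-type mice with those of Smarca5 lox/lox Csf1r-Cre mice, the knockout, by chromatin immunoprecipitation and sequencing (ChIP-seq). Csf1r drives the Cre recombinase in the macrophage lineage, and wild-type cells carry it too. Cells of both genotypes received 4-hydroxytamoxifen daily over 7 days of differentiation. PU.1, C/EBPb and CTCF were profiled in untreated cells, with 4 libraries each, 2 per genotype, and SMARCA5 in 8 libraries, untreated or after 2 h of lipopolysaccharide (LPS) at 10 ng/ml. By the sample titles, the SMARCA5 libraries were micrococcal nuclease (MNase) ChIP-seq, and those of the other proteins ChIP-seq. The 20 further libraries, of the histone mark H3K27ac, were not analysed here.

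PU.1 is an ETS-family transcription factor that is required for the macrophage lineage and binds many of its enhancers. C/EBPb is a basic leucine zipper factor that often occupies macrophage enhancers beside PU.1, and CTCF is the zinc finger protein found at chromatin loop anchors and insulators. SMARCA5 (SNF2H) is the ATPase of the ISWI chromatin remodellers, which slide and space nucleosomes.

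Each protein had 1 consensus list on mouse build mm39, with no value per library. The lists held 67796 PU.1, 30960 C/EBPb, 25307 CTCF and 37071 SMARCA5 peaks. PU.1, C/EBPb and CTCF peaks were narrow, with median widths of 441, 436 and 401 bp, while the SMARCA5 intervals were broad and shallow, with a median width of 2553 bp and a median fold enrichment of 2.08. The SMARCA5 list differed from the others in assay as well as in protein, and the source of this contrast was not tested. Because no list separates libraries, no difference between genotypes, no replicate error and no test over samples could be given for the clusters. The spread over the 20 chromosomes is given in their place, and chromosomes are not replicates.

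The cluster at chr7:81498936-81513392 shows the arrangement at close range. It held 8 PU.1 summits in 14457 bp, with gaps of 1470, 4207, 1264, 3746, 563, 546 and 2104 bp. The -log10 q of its PU.1 peaks, the peak caller's measure of significance, was in order 670, 99.3, 267, 245, 58.3, 106, 106 and 563. The strong peaks thus stood at both ends, with a group of 3 weak, closely set peaks between them. C/EBPb had 3 peaks there, each overlapping a PU.1 peak: the strongest PU.1 peak at the left end, one of the middle pair, and the weakest PU.1 peak, where C/EBPb itself was strongest (-log10 q of 271). All 8 PU.1 summits lay in SMARCA5 peaks, and there was no CTCF summit.

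The cluster at chr9:55997202-56015872 also held 8 PU.1 summits, over 18671 bp, with PU.1 -log10 q from 8.86 to 439. Its weakest PU.1 peak was one of 4 that overlapped C/EBPb, and the C/EBPb peak there had a -log10 q of 159. A CTCF peak overlapped the second PU.1 peak. The last 4 of its PU.1 summits lay in 1 SMARCA5 peak, chr9:56007268-56016424.

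Among clusters of 6 or more summits, the tightest was chr6:97426911-97435367, with 6 summits in 8457 bp, or 0.709 per kb. Its PU.1 -log10 q was 16.5, 53.1, 50.5, 30.2, 767 and 445, so that the last pair far exceeded the other 4. A single SMARCA5 peak, chr6:97426625-97436728, covered the whole cluster. C/EBPb overlapped 3 of its PU.1 peaks and CTCF 1. Here too the strongest C/EBPb peak (-log10 q of 387) lay over the weakest PU.1 peak.

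The single cluster on chromosome X, chrX:9321868-9341047, had 8 PU.1 peaks of more even strength, with -log10 q from 32.4 to 132. C/EBPb overlapped 4 of them and SMARCA5 peaks held 6 of the summits. The cluster at chr4:149781057-149795319 held 3 CTCF summits, each in a peak that overlapped a PU.1 peak. In 2 of these 3 places C/EBPb overlapped the same PU.1 peak.

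**Figure D1:**
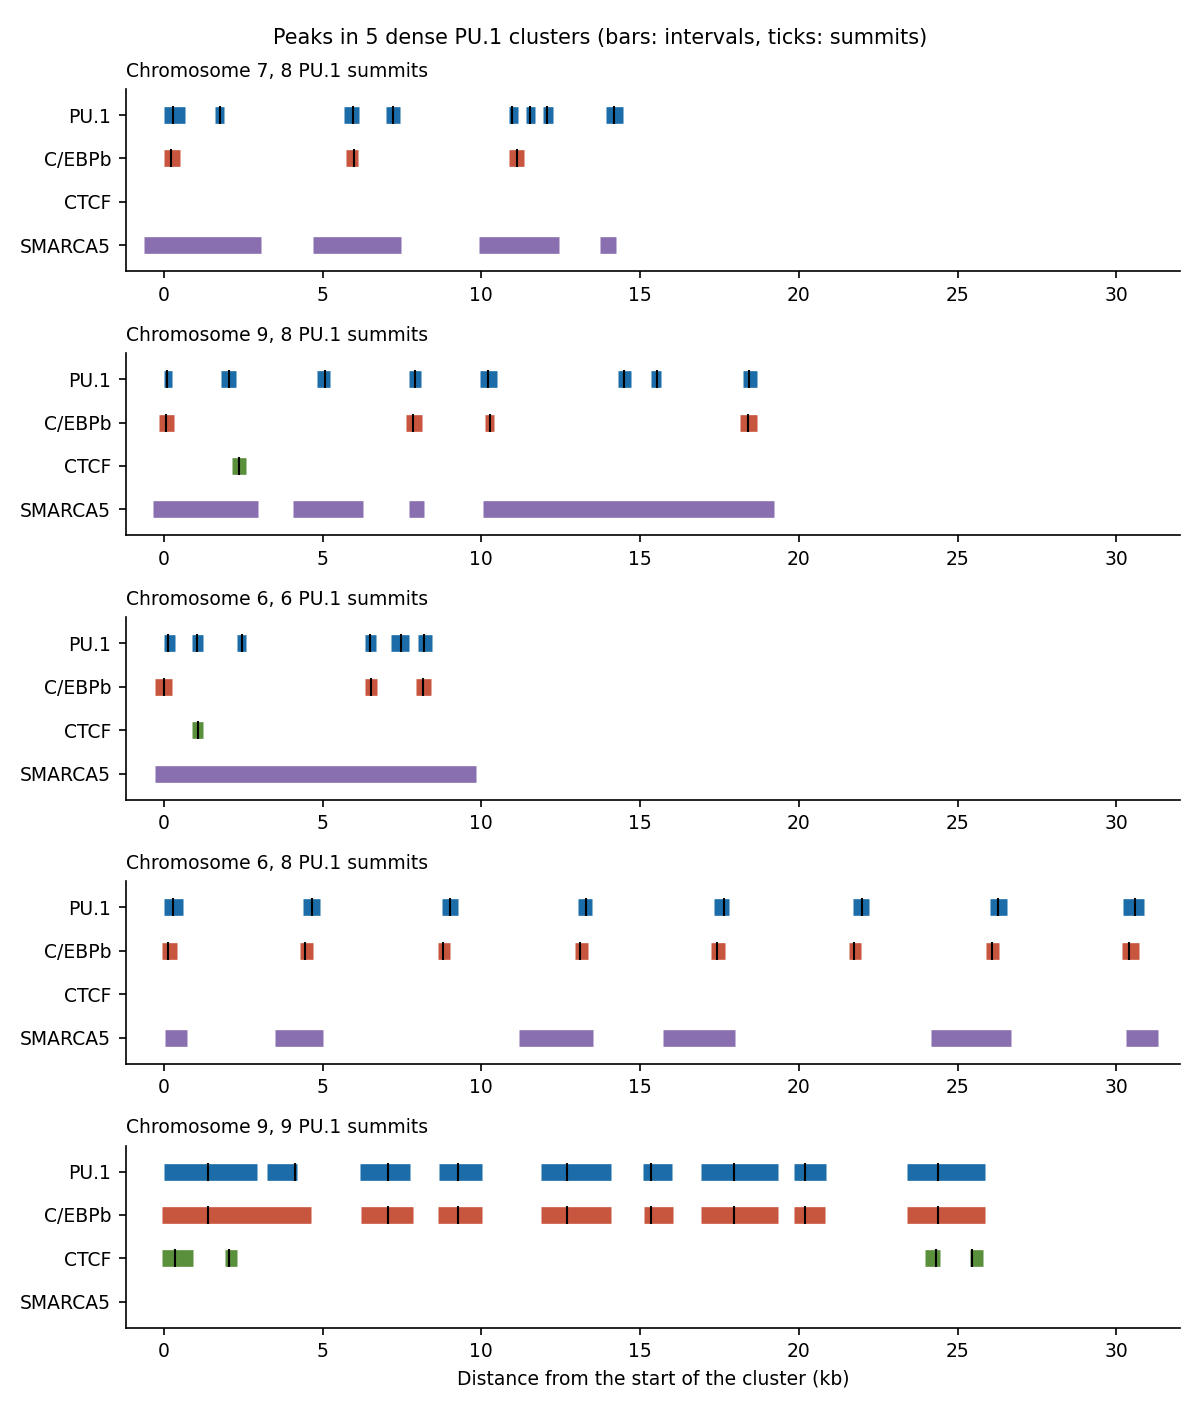
Intervals (bars) and summits (ticks) of PU.1, C/EBPb, CTCF and SMARCA5 in 5 dense clusters, by distance in kb from the cluster's start; SMARCA5 peaks have no summit in the list. The clusters on chromosomes 7 and 9 with 8 PU.1 summits and the tightest one on chromosome 6 have irregular gaps, the second one on chromosome 6 has gaps of 4269 to 4384 bp throughout, and the cluster of 9 summits on chromosome 9 has wide intervals and no SMARCA5 peak.

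Most clusters were small. There were 112 with 5 summits, 50 with 6, 10 with 7, 7 with 8 and 1 with 9, while 464 chains of 4 summits fell just short of the rule. Spans ran from 5612 to 30882 bp with a median of 12373 bp. The clusters together covered 2343.53 kb, 0.0914% of the sequence that all the peak lists together span on these chromosomes. PU.1 intervals filled a median of 18.8% of a cluster's length, so most of a typical cluster lay between peaks. They filled over 50% in only 2 clusters, singled out after their values were seen: the cluster of 9 summits, at 61.2%, and chr17:40154033-40159697, at 83.8%. The latter had 5 PU.1 peaks of low fold enrichment, 2.46 to 5.09, with all 5 summits in a SMARCA5 peak. Its PU.1 intervals were 347 to 1793 bp wide, and whether they mark separate sites was not tested.

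The 815 gaps between neighbouring summits ran from 546 to 4994 bp with a median of 2730 bp. None was under 500 bp, and 78 (9.57%) were between 500 and 1000 bp. Above that they were spread fairly evenly, with 186, 197, 173 and 181 in the successive 1 kb bins up to the limit. At the edge of the rule, the nearest excluded summit lay 5017 bp from an end summit, and 42 of 359 end gaps were under 6000 bp, against a median end gap of 10529 bp.

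Gap lengths within a cluster were usually irregular, but 5 clusters were exceptions that were singled out after their values were seen. The coefficient of variation of the gaps had a median of 0.481 over the 180 clusters and was under 0.1 in those 5. The lowest value, 0.00995, belonged to chr6:47631961-47662842, also the longest cluster, whose 8 PU.1 summits were 4269 to 4384 bp apart. Every one of its PU.1 peaks overlapped a C/EBPb peak. The 8 C/EBPb summits were themselves 4302 to 4340 bp apart, and each lay 174 to 245 bp from its PU.1 summit, always on the side of the lower coordinate. SMARCA5 peaks held 6 of the 8 PU.1 summits, and PU.1 strength was moderate throughout, with -log10 q from 43.8 to 109.

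The next most regular cluster, chr6:47716795-47735156, began 53953 bp further along with no PU.1 summit between the pair. Its 5 PU.1 summits were 4334 to 4752 bp apart and all 5 peaks overlapped C/EBPb, at 139 to 264 bp between summits. The pair thus shared the C/EBPb peak at every PU.1 peak and had similar gaps and offsets, but CTCF overlapped 2 PU.1 peaks of the second cluster and 0 of the first, and PU.1 was stronger in the second, with -log10 q from 114 to 216. The other 3 regular clusters, chr10:60177354-60187431, chr6:125369384-125380505 and chr5:135731407-135742631, had median gaps of 2428.5, 2755.5 and 2612.5 bp, with 2, 3 and 2 of their 5 PU.1 peaks overlapping C/EBPb. Over the 5 regular clusters, 71.4% of 28 PU.1 peaks overlapped C/EBPb.

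The largest cluster stood apart from the rest. It lay at chr9:3000080-3025953, and its 9 PU.1 peaks had -log10 q from 219 to 5979, including 3 of the 12 PU.1 peaks in the list above 2000. All 9 overlapped C/EBPb, and 8 of the 9 PU.1 summits were at the very base of a C/EBPb summit, which was true of 0 of the other 986 cluster peaks and 47 of the 41108 isolated ones. The C/EBPb -log10 q there reached 27139. Its PU.1 intervals were 885 to 2949 bp wide, against a median of 409 bp over all cluster peaks. The cluster had 4 CTCF summits, the most of any, and no SMARCA5 peak. No repeat annotation was used. Whether repeated sequence bears on the signals here, or on the regular clusters, was therefore not tested. Shares and differences that leaving the 9-summit cluster out moves most are given both ways.

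By -log10 q, cluster peaks stood higher than isolated peaks, with a median of 66.5 (interquartile range 38.6 to 145.5) against 46.9, and 66.0 without the 9-summit cluster. By fold enrichment, the height of the summit over the background that the peak caller estimated, they stood lower, at 7.21 (5.34 to 10.3) against 13.2 (9.58 to 18.9). Both orders held on all 20 chromosomes. The ratio of median -log10 q ran from 1.03 to 2.06, and the difference in median fold enrichment was -5.98 ± 0.473 (SD over 20 chromosomes). The 2 measures of strength therefore rank the same peaks in opposite ways against isolated ones.

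The fall in fold enrichment was gradual over chain size. Its median was 13.2, 9.60, 8.15 and 7.64 for isolated peaks and chains of 2, 3 and 4, and 7.44 and 6.88 for clusters of 5 and 6. The median -log10 q for the same sizes was 46.9, 48.6, 52.9, 59.3, 70.3 and 60.7. Isolated peaks thus had the highest enrichment of any chain size and the lowest median -log10 q, and in fold enrichment the clusters continued the course of the smaller chains.

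**Figure D2:**
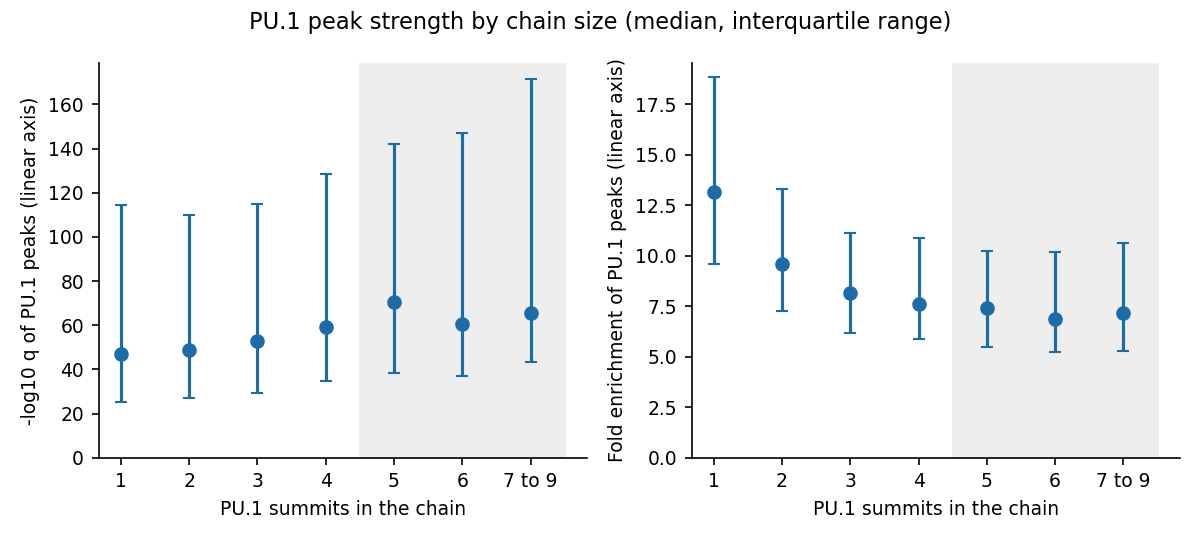
Median and interquartile range of PU.1 -log10 q (left) and fold enrichment (right) by the number of PU.1 summits in the chain, with dense clusters shaded and sizes 7 to 9 pooled. The medians of -log10 q go from 46.9 for isolated peaks to 65.7 for chains of 7 to 9, and those of fold enrichment from 13.2 to 7.16.

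At equal -log10 q the gap in fold enrichment was present throughout. The PU.1 list was divided into 10 equal parts by -log10 q, and cluster peaks had the lower median fold enrichment in all 10 of these deciles. It was 3.96 against 6.99 in the lowest decile, 5.85 against 13.1 in decile 5 and 14.3 against 26.6 in the highest. Cluster peaks were also narrower in decile 5, with a median of 355.5 bp against 418 bp. Of the 995 cluster peaks, 644 (64.7%) were in the upper 5 deciles of -log10 q but only 125 (12.6%) exceeded the median fold enrichment of isolated peaks. Even the clusters with the highest median fold enrichment, chr5:76278619-76290015, chr5:9134459-9143872 and chr10:8746079-8760470, at 12.3, 12.2 and 11.9, stayed under it.

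Clusters were uneven inside. The strongest peak of a cluster exceeded the weakest by a median of 7.83 times in -log10 q and at most 49.5 times, and held a median of 40.9% of the cluster's summed -log10 q. Ranked within clusters, the peaks at ranks 1 to 5 had median -log10 q of 243, 123, 72.5, 49.6 and 35.0. By this measure 84 of 180 clusters (46.7%) contained a peak of the highest decile of the whole list. By fold enrichment, the highest peak of a cluster stayed under the median of isolated peaks in 84 clusters, also 46.7%. The strongest peak was an end peak in 73 clusters (40.6%), while end peaks made up 36.2% of cluster peaks, and by fold enrichment it was also the first of its cluster in 143 (79.4%). End peaks had a median -log10 q of 73.7 and inner peaks 63.1.

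C/EBPb peaks met PU.1 peaks more often in clusters than at isolated sites, with the smaller chains in between. Of cluster peaks, 34.2% (340 of 995) overlapped a C/EBPb peak by at least 1 bp, against 25.1% (10314) of isolated peaks, a difference of 9.08 percentage points. In chains of 2, 3 and 4 summits the share was 28.9%, 30.1% and 31.1%, and in clusters of 5 and 6 it was 32.7% and 35.0%. The share in clusters of 7 or more summits was 38.5%, but 34.1% without the 9-summit cluster. Also without the regular ones it was 29.7%, below that of chains of 4. Over all clusters, without the 9-summit cluster the share was 33.6%, and also without the 5 regular clusters it was 32.5%, a difference of 7.37. Over chromosomes the difference was 10.98 ± 10.7 points (mean, SD), above 0 on 18 of 20, from -1.76 on chromosome 14 to 33.4 on chromosome 6. The chromosome 6 value was 14.0 without its 3 regular clusters. The chromosome 9 value was 13.7 with the 9-summit cluster and -1.89 without it, which left 17 of 20 chromosomes above 0. The spread over chromosomes was thus as large as the difference itself.

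Strong PU.1 peaks overlapped C/EBPb more often in both sets. With isolated peaks weighted to the clusters' deciles of -log10 q the difference was 5.96 points, and with deciles of fold enrichment it was 14.2. By decile of -log10 q the difference was 0.23 points in the lowest, 7.02 to 16.4 points in deciles 2 to 8, and -2.25 and -2.43 points in deciles 9 and 10. By -log10 q the excess was therefore in deciles 2 to 8, widest in decile 3. The weakest peak of each cluster overlapped C/EBPb in 25.6% of clusters, against 16.4% of isolated peaks in the same deciles, while the strongest did so in 46.7% against 45.7%. When summits had to lie within 100 bp of each other the shares were 22.6% and 16.8%. Among the upper 50% of PU.1 peaks, chained anew, they were 40.4% and 35.8%.

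As a region, nearly every cluster held C/EBPb. A C/EBPb summit lay inside 169 of 180 clusters (93.9%), against 35.2% of windows reaching 5000 bp to each side of an isolated PU.1 summit, and 123 clusters held at least 2. Per length, clusters had 1.63 C/EBPb summits per 10 kb and isolated windows 0.389, a ratio of 4.20 that was above 1 on all 20 chromosomes. Much of this density lay on the PU.1 peaks themselves. Outside PU.1 intervals it was 0.396 against 0.162 per 10 kb, a ratio of 2.45, from 75 C/EBPb summits in the clusters. Isolated windows hold 1 PU.1 peak by construction, and with windows of 2500 bp each side, which keep closer to it, the first ratio was 2.52.

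The C/EBPb peaks in clusters had a higher median -log10 q than those elsewhere on these chromosomes, 95 against 48.2, but a lower median fold enrichment, 10.9 against 11.8, the same opposition as for PU.1. Where a PU.1 peak and a C/EBPb peak overlapped, their summits were a median of 67 bp apart in clusters and 60 bp at isolated sites, with 40.3% and 44.1% within 50 bp. Clusters thus had more such overlaps but similarly close ones. Full pairing was rare, as every PU.1 peak overlapped C/EBPb in only 3 clusters: the 9-summit cluster and the regular pair on chromosome 6.

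CTCF did not follow this pattern at the peaks. It overlapped 6.23% of cluster peaks and 7.66% of isolated ones, a difference of -1.43 points. Over chromosomes the difference was -1.22 ± 4.25 points (mean, SD), below 0 on 14 and above 0 on 6, so it was within their spread. Without the 9-summit cluster it was -1.57 points. Within deciles of fold enrichment it was -3.98 points. CTCF summits inside the clusters were nevertheless more frequent per length than around isolated peaks, at 0.427 against 0.231 per 10 kb, a ratio of 1.84. As for C/EBPb, the isolated windows hold 1 PU.1 peak by construction, and the clusters hold more per length. Outside PU.1 intervals the values were 0.248 and 0.175, a ratio of 1.42. Of the 180 clusters, 81 (45%) held a CTCF summit, against 20.6% of isolated windows of 10 kb. Of the 100 CTCF summits in clusters, 53 lay on PU.1 intervals and 47 between them. The nearest CTCF summit was a median of 9461 bp from a cluster peak and 19535.5 bp from an isolated one.

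**Figure D3:**
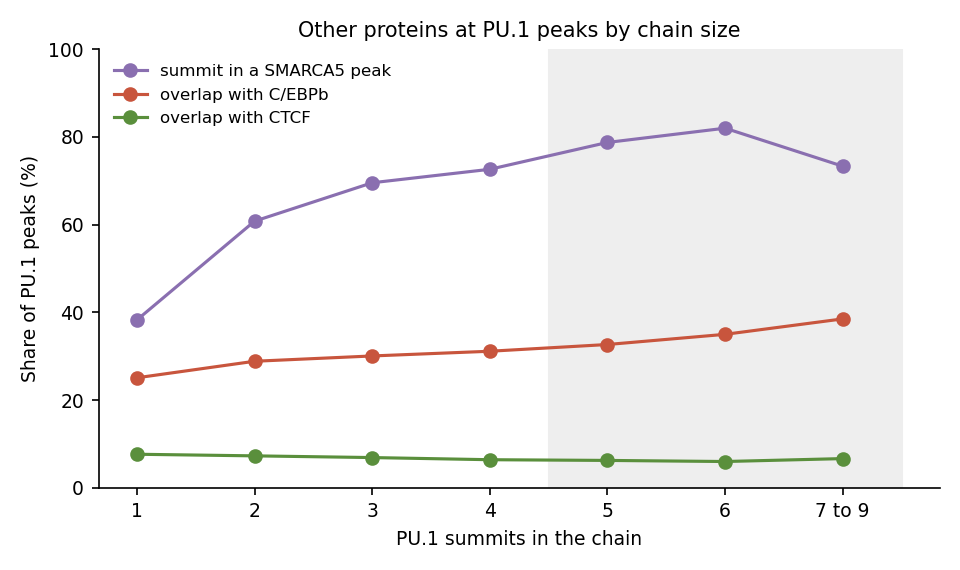
Share of PU.1 peaks, in percent, whose summit lay in a SMARCA5 peak or that overlapped a C/EBPb or CTCF peak, by the number of PU.1 summits in the chain, with dense clusters shaded. SMARCA5 goes from 38.3% at isolated peaks to 82.0% in clusters of 6 and 73.3% in those of 7 to 9, C/EBPb from 25.1% to 38.5%, and CTCF stays between 6% and 7.66%; without the 9-summit cluster the group of 7 to 9 has 78.6% for SMARCA5 and 34.1% for C/EBPb.

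SMARCA5 peaks showed the widest difference of the 3 lists. Of cluster summits, 79.0% (786 of 995) lay in a SMARCA5 peak, against 38.3% of isolated summits. The difference of 40.7 points was above 0 on all 20 chromosomes, with a mean of 41.2 ± 7.38 (SD) and a range from 30.3 on chromosome 9 to 55.2 on chromosome 19. Without the 9-summit cluster, which has 0 of its summits in a SMARCA5 peak, the chromosome 9 value was 47.5 and the lowest was 32.7, on chromosome 3. It was 36.4 points within deciles of PU.1 -log10 q and 44.4 within deciles of fold enrichment. In smaller chains the share already stood above the isolated one, at 60.8% for 2 summits and 69.6% for 3. In clusters of 7 or more it was 73.3%, and 78.6% without the 9-summit cluster.

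The size of this difference depended on which SMARCA5 peaks were kept. With the upper 50% of SMARCA5 peaks by fold enrichment, the shares were 23.6% of cluster summits and 20.0% of isolated summits, a difference of 3.59 points. With SMARCA5 peaks wider than 5 kb left out they were 45.5% and 32.5%, a difference of 13.0. Most of the excess at cluster summits was thus in the lower 50% of SMARCA5 peaks by enrichment, and much of it in wide ones. The 434 SMARCA5 peaks with a cluster summit inside had a median width of 3325 bp and a median fold enrichment of 2.03, and the 15363 with 1 isolated summit as their only PU.1 summit had 2785 bp and 2.09.

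The excess was present in every decile of PU.1 -log10 q and narrowest at the strongest peaks. It was 36.7 points in the lowest decile, rose to 53.3 in decile 6 and was 7.19 in the highest. In the lowest decile of PU.1 -log10 q, 63.0% of cluster summits and 26.3% of isolated ones lay in SMARCA5 peaks, and in decile 6 85.9% and 32.6%. In the highest decile the shares were 87.3% and 80.1%. Isolated peaks thus reached a high share only when strong, whereas in every decile 63.0% or more of cluster peaks lay in SMARCA5 peaks. The weakest peak of each cluster lay in a SMARCA5 peak in 72.2% of clusters, against 26.5% of isolated peaks in the same deciles. Within clusters, the SMARCA5 share was lower only for the peaks furthest from their nearest PU.1 summit. It was 88.2% for the 152 peaks at most 1000 bp away, 89.6% for the 309 at 1000 to 2000 bp and 70.2% for the 534 further apart. For the same groups the C/EBPb share was 39.5%, 30.4% and 34.8%, and the median PU.1 -log10 q was 66.8, 65.4 and 67.2.

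**Figure D4:**
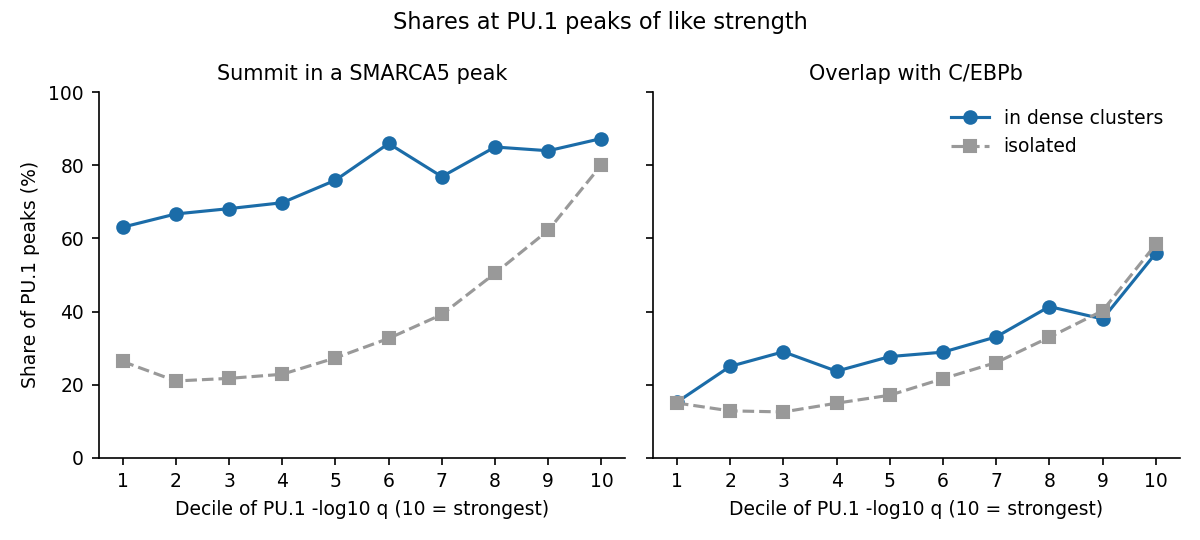
Share of PU.1 peaks, in percent, with the summit in a SMARCA5 peak (left) or overlapping C/EBPb (right), by decile of PU.1 -log10 q, for cluster peaks (circles) and isolated peaks (squares). SMARCA5 at isolated peaks goes from 26.3% in the lowest decile to 80.1% in the highest, and at cluster peaks from 63.0% to 87.3%, while the C/EBPb curves cross between deciles 8 and 9.

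SMARCA5 also lay between the PU.1 peaks. Its peaks covered a mean of 59.3% ± 22.1 (SD over 180 clusters; 59.6% without the 9-summit cluster) of a cluster's length, against 14.8% of the windows around isolated summits, and 37.2 points separated the means when the windows reached only 2500 bp each side. With the upper 50% of SMARCA5 peaks the means were 16.1% and 6.98%, and without those over 5 kb they were 29.3% and 10.6%. At the midpoints of the gaps inside clusters, 53.0% of positions were in a SMARCA5 peak, against 18.7% of positions at the same distances from isolated summits. For gaps of up to 1000 bp the shares were 89.7% and 34.5%, and for those of 4000 to 5000 bp they were 26.5% and 10.7%. Coverage thus fell with the distance to the nearest PU.1 summit in both sets, from a higher start in clusters. A gap midpoint lies between PU.1 summits on both sides, while an isolated summit has by the rule no other within 5000 bp. The sets were therefore matched for distance but not for the PU.1 summits nearby, and how much of the difference this accounts for was not tested.

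Of the 180 clusters, 177 met a SMARCA5 peak, and 68 (37.8%) had every PU.1 summit inside one. SMARCA5 was mostly broken into several intervals, with 61 clusters meeting 2, 57 meeting 3 and 28 meeting 4, while 26 met a single one. The clusters with 6 or more summits and the fullest coverage were chr2:167182916-167194833 and the tightest one on chromosome 6, both covered over their whole length, and chr13:63250724-63263339, covered over 93.9%. The 3 clusters that met none were the 9-summit cluster, chr5:90732627-90743151 and the regular cluster chr6:125369384-125380505. Without the 9-summit cluster 79.7% of cluster summits lay in SMARCA5 peaks.

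Outward from the clusters, SMARCA5 coverage fell steeply but stayed above that around isolated peaks. It was 75.3% at the end summits, 41.4% at 1000 bp, 21.4% at 2000 bp and 24.2% at 10000 bp, against 38.3%, 24.1%, 12.1% and 10.8% at isolated summits. Inward it was higher, at 60.6% at 1000 bp and 56.1% at 2000 bp. Outward coverage was 15.8% at 4000 bp and 24.7% at 7500 bp. Around isolated summits it also dipped, to 6.96% at 4000 bp. At 50000 bp the outward and isolated values were 14.7% and 9.64%. By the rule there is no PU.1 summit within 5000 bp outward of an end summit. Inward positions lie towards the next PU.1 summits of the cluster. Inward and outward positions thus differ by construction in the PU.1 summits nearby, and whether their coverage differs beyond that was not tested.

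**Figure D5:**
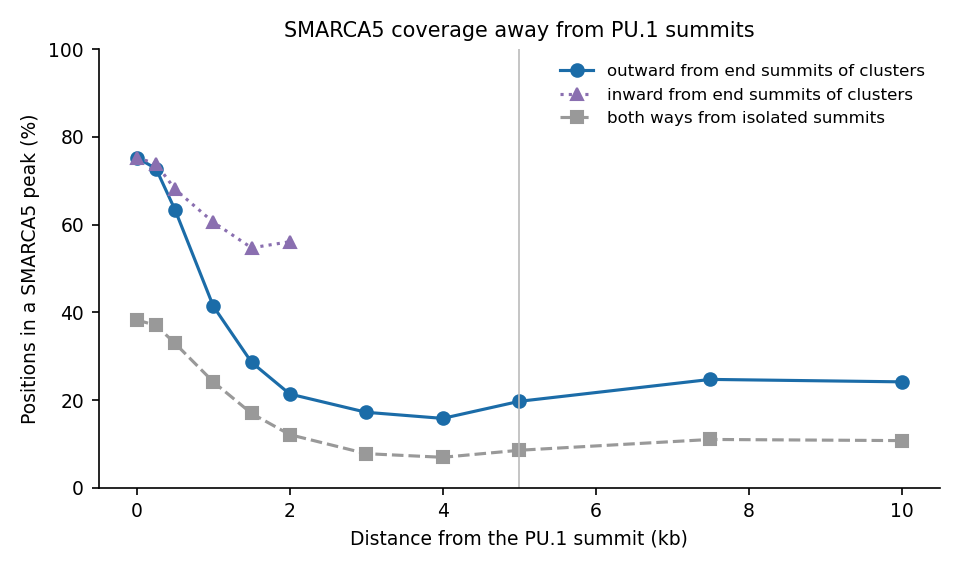
Share of positions in a SMARCA5 peak, in percent, by distance in kb from the end summits of clusters, outward (circles) and inward (triangles), and from isolated PU.1 summits in both directions (squares), with the grey line at the chaining distance of 5 kb. Outward values go from 75.3% at the summit to 21.4% at 2 kb, and isolated ones from 38.3% to 12.1%.

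The 3 other proteins together were present in 75 clusters (41.7%), and no cluster lacked all of them. The sequence around clusters was also richer in peaks. Between 5 and 50 kb from the end summits, clusters had a mean of 7.83 ± 3.23 PU.1, 4.21 ± 2.38 C/EBPb and 2.34 ± 1.80 CTCF summits (SD over 180 clusters), against 5.26 ± 3.35, 2.51 ± 2.18 and 1.71 ± 1.64 around isolated peaks. Each SD is the spread between single sites. Of the 180 clusters, 10 had another within 100 kb and 35 within 1000 kb, and no expected number was computed for these counts. Clusters were on every chromosome used, from 1 on chromosome X to 17 on chromosome 5, and were densest on chromosome 11, with 13.5 per 100 Mb.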

How the data were processed

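The authors deposited 1 consensus peak list per protein on mm39, with 0 value columns tied to a library. Per the submitters' processing notes, the tools included MACS2 2.2.7.1, deepTools 3.5.1, STAR 2.7.9a and Picard 2.27.4. Not given in the sources used here: the step each served, the libraries behind a list and how values were combined. Depth per library is unknown, so no counting interval is given. The deposited columns used were the fold enrichment (a ratio), the -log10 q and the summit offset in bp from the interval's start; the deposited score column was examined for its decimals only. Starts were read as counted from 0 and are printed counted from 1.

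PU.1 summits were chained at up to 5000 bp, chains of at least 5 kept, and overlaps counted from 1 bp. Isolated peaks were those with no PU.1 summit within 5000 bp, in windows of 5000 bp each side. C/EBPb and CTCF were placed by interval and summit, SMARCA5 by interval. Deciles were set over the 20 chromosomes. Values were computed with pandas 2.3.3 and NumPy 2.4.6 in Python 3.11.15, and the chaining was tested on data with known answers. Clusters were named by rank: the most PU.1, C/EBPb or CTCF summits, the most summits per kb, the highest SMARCA5 coverage (6 or more summits), the highest median fold enrichment, and those without SMARCA5; the regular clusters were added after their values were seen. The members and lists were chosen with earlier results of these data known. No genome or annotation of mm39 was used here, so genes and sequences are not given. Alternatives covered the chaining distance, cluster size, peak thresholds, window size, strength deciles and leaving out chromosomes or clusters.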

Additional observations from a re-analysis of the deposited data

How the results depend on the processing

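Of 100 recomputed values, 2 reversed and 98 did not, and 31 moved beyond the limit set for them. The values for the number of clusters, 7 the same and 5 moved, have no direction to reverse. Dropping summits under 200 bp from a stronger one removed none, because no chained gap was under 238 bp. The limit for cluster number was a factor of 1.5. Other limits were 95% intervals that treat cluster peaks, clusters or C/EBPb summits as independent, so they are yardsticks only. Chaining at 2500 bp, with windows to match, left 6 clusters, and the C/EBPb difference reversed to -2.62 points, from 30 peaks; CTCF was -7.55, SMARCA5 at summits 48.1 and coverage 63.1 points, with ratios of 1.69 for -log10 q and 2.22 for C/EBPb per length. Chaining at 10000 bp, with windows kept at 5000 bp each side and so not matched, gave 2063 clusters. The SMARCA5 differences were then 31.0 at summits and 24.5 in coverage, and the C/EBPb ratio was 3.01. A minimum of 4 summits gave 644 clusters and 36.6 points for SMARCA5, and 6 gave 68 clusters. The upper 50% of PU.1 peaks gave 44 clusters, C/EBPb 4.58 and SMARCA5 27.9 points, and ratios of 1.07 for -log10 q and 3.54 for C/EBPb. Summits within 100 bp gave C/EBPb 5.83. Leaving out SMARCA5 peaks over 5 kb gave 13.0 at summits and 18.7 in coverage, and the upper 50% of SMARCA5 peaks 3.59 and 9.07. Windows of 2500 bp gave a coverage difference of 37.2 and a C/EBPb ratio of 2.52, and C/EBPb outside PU.1 intervals 2.45. Fold enrichment in place of -log10 q reversed the ratio of medians to 0.547. Within deciles of -log10 q, C/EBPb was 5.96 and SMARCA5 36.4, and within deciles of fold enrichment, chosen after seeing the data, C/EBPb was 14.2, CTCF -3.98 and SMARCA5 44.4. The cause of these changes was not tested, apart from the smaller lists and windows that the settings make by construction.

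Leaving out 1 chromosome at a time gave 163 to 179 clusters, C/EBPb 7.90 to 9.92, CTCF -1.76 to -1.2, SMARCA5 39.7 to 41.3 and coverage 43.6 to 45.5 points, -log10 q ratios of 1.38 to 1.45 and C/EBPb ratios of 4.09 to 4.33. Leaving out the 9-summit cluster, alone or with the 5 regular clusters (both chosen after seeing the data), moved none of the 7 values beyond its limit. With all of these left out, 958 of the 995 cluster peaks remained, so this does not show that the clusters left out matter little. No paired analysis was possible because every deposited value belongs to a pooled list.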
